A study of Mus musculus with 12 samples.

Results

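Isolated CpG sites are autosomal sites of the count table that have no other site of that table on the same chromosome within 1000 bp on either strand. They number 5135 of the 13917 autosomal sites (36.9%), and the table holds 14149 sites in all. The 8782 other autosomal sites have a neighbour within that distance, and the 68 sites without a neighbour on the sex chromosomes were not used. Cytosine methylation at CpG dinucleotides is copied to daughter strands after replication, and in male germ cells most of the genome is methylated while CpG-dense promoters are kept free of it. Methylation of close CpGs is usually alike, so that a region is often read from several sites at once, whereas an isolated site stands for its region alone. In the epididymis, spermatozoa leaving the testis pass through the caput, corpus and cauda, where they mature without replicating or transcribing their DNA.

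Untreated mice aged 10 to 12 weeks gave 3 samples of testicular spermatozoa and 3 from each segment of the epididymis, 12 in all. The samples were profiled by reduced representation bisulfite sequencing (RRBS), which reads restriction fragments that start at CCGG. The mice of every group carried 2 transgenes of the line RBGS002Osb on a B6D2F1 background, DsRed2 under the CAG promoter in mitochondria and EGFP under the Acr3 promoter in the acrosome, and cells with both colours were sorted. Each sample came from pooled mice, and cauda spermatozoa were collected by perfusion. The study describes its methylation results as representing 3 independent experiments. The labels do not say that the replicates were separate sets of animals, so a p-value measures only the spread between these samples. The testicular samples served as the controls of every segment, so the comparisons of caput, corpus and cauda with testis share them.

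The table gave 945451, 1007992 and 879218 reads over its sites in the testicular samples. It gave 643941, 869129 and 706411 in the caput, 429606, 848746 and 616626 in the corpus, and 784708, 679576 and 765781 in the cauda samples. The isolated sites took between 139811 reads in corpus replicate 1 and 369468 reads in testicular replicate 2. Their median coverage per site was 46, 56 and 48 reads in testicular, 31, 43 and 35 in caput, 19, 43 and 31 in the corpus and 42, 37 and 42 in cauda samples. Corpus replicate 1 was thus the least deeply read. Every isolated site had between 10 and 626 reads in every sample, and the lowest coverage of a site over the 12 samples had a median of 15 reads. At the lowest coverage of 10 reads, 1 read is worth 10 percentage points, and a level of 50% has a 95% Wilson interval from 23.7 to 76.3%. Reads copied from the same molecule cannot be told apart in this table, so such intervals, and the limits given for levels of 0, cover counting error only. Such a limit is the level at which 3 methylated reads would be found on average. Coverage reached 20 reads in all 12 samples at 1763 isolated sites and 50 reads at 392.

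Caput replicate 1 stood apart from the other samples. Over the isolated sites its Pearson correlation was 0.802 with caput replicate 2 and 0.779 with caput replicate 3, while caput replicates 2 and 3 reached 0.917. Its correlation with the testicular samples was 0.632, 0.639 and 0.636, and caput replicates 2 and 3 lay between 0.890 and 0.902 with those samples. At 1869 isolated sites (36.4%) caput replicate 1 was the highest or the lowest of the 12 samples without a tie, against 28.3% of the other autosomal sites. The main caput results are therefore given with and without it, and levels of single sites are given per sample or with their SD. A few named sites have only their pooled difference. All correlations across sites are descriptions, since the sites of a sample share its library and depth.

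Isolated sites lay a median of 63774 bp from the nearest other site of the table (quartiles 22899.5 and 152456 bp, lowest 1003 bp). The other autosomal sites lay a median of 9 bp away. The name concerns the table and not the genome, because all 5135 isolated sites had another CpG of the genome within 1000 bp. The nearest CpG of the genome was a median of 24 bp away, and at 76.3% of the isolated sites it was the CpG of a CCGG, where the MspI enzyme of RRBS cuts. Among the other sites 13.8% had such a CpG as the nearest, and the median distance was 9 bp. With CpGs in CCGG left aside, the nearest CpG was a median of 48 bp from an isolated site and 9 bp from another site. A CCGG lay within 50 bp of 96.2% of the isolated and 96.8% of the other sites, so nearly all sites of both sets lay close to the end of a restriction fragment.

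The DNA around isolated sites held fewer CpGs. A median of 16 other CpGs lay within 500 bp of an isolated site (quartiles 11 and 23), against 29 around the other sites, and the median GC content of these windows was 46.7 and 50.6%. By GENCODE annotation, 1527 isolated sites (29.7%) lay in promoters, within 2000 bp of a transcription start, and 265 (5.16%) in exons, 1540 (30.0%) in introns and 1803 (35.1%) between genes. Of the other sites 52.0% lay in promoters, 6.97% in exons, 17.3% in introns and 23.8% between genes. The median distance to a transcription start was 7281 bp for isolated and 1599 bp for other sites. Repeats held 17.7% of the isolated and 14.8% of the other sites. Isolated sites were found on every autosome, and their share of a chromosome's table sites ran from 34.5% on chromosome 7 to 41.0% on chromosome 3.

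Isolated sites were more methylated than the other sites in all 12 samples. The mean methylation level over the isolated sites was 62.8, 64.0 and 63.8% in testicular, 65.5, 64.3 and 64.6% in caput, 62.5, 65.0 and 63.7% in the corpus and 63.8, 63.7 and 63.3% in cauda samples. The highest level was that of caput replicate 1 and the lowest that of corpus replicate 1. All caput samples lay above all testicular samples, and the corpus and cauda samples overlapped with the testicular ones. Over the other autosomal sites the mean level was 39.2, 40.4 and 39.96% in testicular and 46.3, 43.3 and 42.9% in caput samples. The set's threshold of 1000 bp leaves close sites on both sides: 41 isolated sites with a neighbour up to 1200 bp away had a mean testicular level of 48.7%, and 31 sites with their nearest neighbour at 800 to 1000 bp had 37.7%.

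Averaged over replicates, the level was 63.5 ± 0.638% in testis, 64.8 ± 0.601% in caput, 63.7 ± 1.25% in the corpus and 63.6 ± 0.262% in cauda (n = 3, SD). Caput exceeded testis by 1.26 percentage points (exact two-sided permutation test over samples, p = 0.1, the smallest that 3 samples against 3 can give). Without caput replicate 1 the caput mean was 64.5%, which is 0.925 points above testis. Corpus differed from testis by 0.207 points (exact permutation p = 1) and cauda by 0.0609 points (exact permutation p = 1), both less than the spread between replicates. Corpus minus caput was -1.06 points (exact permutation p = 0.3), and cauda differed from corpus by -0.146 points (exact permutation p = 0.9). Each of these differences between groups changed sign under at least 1 other setting. With reads pooled over sites, corpus minus testis was -3.84 and cauda minus testis -0.650 points. After Benjamini-Hochberg adjustment over the 8 tests of sample means and shifts, the smallest value was 0.267 by the exact permutation test.

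The median over sites and the shares at the ends of the scale show more than the mean. The median level was 88.9, 91.2 and 91.1% in testicular samples but 83.4, 80.8 and 82.1% in caput and 83.3, 85.7 and 85.1% in corpus samples. Cauda samples had medians of 91.7, 91.7 and 91.3%. Every caput and corpus sample thus lay below every testicular and cauda sample. The share of isolated sites at 90% or more was 51.0 ± 2.09% in testis, 41.3 ± 1.41% in caput, 45.5 ± 0.427% in the corpus and 52.2 ± 0.232% in cauda (n = 3, SD). The share under 10% was 25.5 ± 0.394% in testis, 18.3 ± 0.197% in caput, 20.5 ± 2.48% in the corpus and 26.0 ± 0.253% in cauda. Between those levels lay 23.5 ± 1.79% of the isolated sites in testis, 40.4 ± 1.61% in caput, 34.0 ± 2.87% in the corpus and 21.7 ± 0.0737% in cauda. In caput and corpus both extremes therefore held fewer sites than in testis, and in cauda the shares were close to the testicular ones. A percentage of reads averages over all DNA of a sample, so that a partial change in many cells, a full change in some, and DNA of other origin cannot be told apart here.

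The gap between isolated and other sites was smaller in the caput samples. The mean over isolated sites exceeded that over the other autosomal sites by 23.6, 23.7 and 23.8 points in testicular samples, by 19.2, 21.1 and 21.6 points in caput, by 22.7, 22.6 and 22.7 points in the corpus and by 23.9, 23.6 and 23.9 points in cauda samples. No caput or corpus sample reached a testicular one. The gap was 20.6 ± 1.28 points in caput against 23.7 ± 0.111 in testis, a shift of -3.05 points (exact permutation p = 0.1). The shift was -2.33 points without caput replicate 1. In corpus it was -1.004 points (exact permutation p = 0.1) and in cauda 0.123 points (exact permutation p = 0.4). All 3 shifts had an adjusted p of at least 0.267 by the exact permutation test. By medians over sites in place of means, the shifts were -34.6 points in caput, -16.9 in corpus and 1.90 in cauda. The caput and corpus values lay mostly in the other sites, whose median was 8.46% in testis, 34.8% in caput and 19.7% in corpus. At isolated sites the median was 90.4, 82.1 and 84.7% in that order (means of 3 samples).

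Because shifts in both directions cancel in a mean, isolated sites were also grouped by their mean level in the cauda samples. These groups were chosen after the data had been seen and carry no test. The cauda levels within each group follow from this choice and are given only as a description. The sites low in cauda, under 20%, numbered 1517 (29.5%), those from 20 to under 80% numbered 612 (11.9%) and those at 80% or more numbered 3006 (58.5%). At the low sites the mean level was 3.99, 4.65 and 4.23% in testicular samples, 28.7, 14.7 and 14.5% in caput, 8.19, 11.8 and 9.09% in the corpus and 3.47, 3.33 and 3.17% in cauda samples. Every caput and corpus sample lay above every testicular one, and caput replicate 1 lay far above the other caput samples. The caput mean was 19.3 ± 8.14% (SD, n = 3), or 14.6% without replicate 1, against 4.29 ± 0.333% in testis. At the high sites the level was 95.004, 95.6 and 95.7% in testicular samples, 82.6, 89.8 and 91.1% in caput, 91.8, 93.0 and 93.3% in the corpus and 96.4, 96.4 and 96.3% in cauda samples. Here every caput and corpus sample lay below every testicular one. The caput mean was 87.8 ± 4.63%, or 90.5% without replicate 1, against 95.4 ± 0.382% in testis and 92.7 ± 0.820% in corpus. At the 612 sites in between, the level was 53.7 ± 2.83% in testis, 64.4 ± 7.47% in caput, 55.5 ± 3.41% in the corpus and 52.0 ± 1.76% in cauda. The caput samples had 72.8, 62.1 and 58.4% there, and their mean was 60.3% without replicate 1.

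As whole sets, low isolated sites stood higher in caput than low sites with neighbours. The 4848 other sites low in cauda had a mean of 2.43 ± 0.284% in testis and 11.4 ± 4.31% in caput (SD, n = 3), or 8.95% without caput replicate 1. The difference from testis was 5.99 points larger at the isolated ones, and 3.77 points larger without that replicate. The low isolated sites were then split by the number of other CpGs within 500 bp, also after seeing the data. With at most 22 such CpGs, 522 sites had 7.33, 8.46 and 7.44% in testicular and 52.9, 27.2 and 26.0% in caput samples. With up to 39, 507 sites had 3.52, 4.26 and 3.95% in testicular and 28.1, 14.1 and 14.3% in caput samples. With more than 39, 488 sites had 0.903, 0.973 and 1.10% in testicular and 3.37, 1.999 and 2.40% in caput samples. The caput level was thus lower where more CpGs surrounded the site, in each of the 3 caput samples. Other low sites within the same bounds had caput means of 36.4, 21.1 and 3.08%, against 35.4, 18.8 and 2.59% at isolated sites. Without caput replicate 1 these were 28.7, 16.2 and 2.51% at other and 26.6, 14.2 and 2.20% at isolated sites. Within these bounds the isolated minus other shift was -1.50, -2.54 and -0.434 points, and -2.54, -2.25 and -0.257 points without caput replicate 1. The caput and testicular samples overlapped in this quantity in the first and last of the 3 classes and not in the middle class. The overlap in the first class came from caput replicate 1 alone. None of it was tested.

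By annotation, the low isolated sites differed in the same way. At 943 promoter sites the mean level was 3.17 ± 0.108% in testis and 11.2 ± 4.41% in caput (8.68% without replicate 1). At 48 exonic sites it was 6.13 ± 0.756 and 34.8 ± 16.5% (25.3% without replicate 1), at 172 intronic sites 6.17 ± 0.796 and 32.2 ± 14.5% (23.8%), and at 354 intergenic sites 6.11 ± 1.08 and 32.4 ± 13.9% (24.4%; SD, n = 3 throughout). Promoter sites thus had the smallest difference in caput. Among the high isolated sites the annotation made less difference. The caput level was 86.4 ± 4.25% at 424 promoter, 90.3 ± 4.56% at 188 exonic, 87.5 ± 5.51% at 1234 intronic and 88.3 ± 3.84% at 1160 intergenic sites (88.8, 92.9, 90.6 and 90.5% without replicate 1), and the testicular level lay between 94.99 and 96.3% in the 4 classes.

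Each site was next compared between a segment and testis. Logistic regression on the pooled reads of the replicates gave a likelihood-ratio p-value per site, which was adjusted by the Benjamini-Hochberg method over all 14149 sites. A site was called when the adjusted value was below 0.01 and pooled methylation differed by more than 25 percentage points. The spread between replicates has no weight in such a test, which takes every read as independent. The median size of the difference of replicate means at an isolated site was 5.45 points for caput, 3.61 for corpus and 2.13 for cauda. Differences above 10 points upward and downward were found at 986 and 918 isolated sites in caput (19.2 and 17.9%), at 621 and 601 in corpus and at 150 and 198 in cauda. At the other autosomal sites the caput shares were 19.5% upward and 9.10% downward, so that downward differences made up more of those at isolated sites. The sets also differ in level. In cauda, 58.5% of the isolated and 35.2% of the other sites were at 80% or more, and 29.5 and 55.2% were under 20%. Whether this bears on the directions was not tested.

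In caput, 985 isolated sites were called (19.2%), against 16.8% of all sites tested. Methylation rose at 585 of them, where 11.5% of all sites rose, and fell at 400, where 5.25% of all sites fell. Rises made up 59.4% of the calls at isolated sites and 75.3% of the 1358 calls at the other autosomal sites. Of the 8782 other sites 1023 rose and 335 fell, so that these shares depend on the number of falls as well. The 3 caput samples did not overlap with the 3 testicular ones at 826 called isolated sites (497 up and 329 down), against 14.1% of all sites. With caput replicates 2 and 3 alone, 689 isolated sites were called, 416 up and 273 down, against 11.9% of all sites. By limma, which does weigh the spread between replicates, 321 isolated sites passed the same thresholds (185 up and 136 down), which is 6.25% of them against 5.96% of all sites, and 316 were also called by logistic regression. Without caput replicate 1, limma passed 73 isolated sites (39 up and 34 down), or 1.42% against 1.60% of all sites.

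The called caput sites split by their level in the other samples. Of the 585 that rose, 450 were low in cauda, 133 in between and 2 high. Of the 400 that fell, 359 were high, 40 in between and 1 low. The mean testicular level was 4.29% at the low and 95.4% at the high isolated sites. A call needs a pooled difference above the set threshold, so low sites could hardly fall and high sites could hardly rise. The split by direction in these 2 classes was thus largely set by the levels, and it was not tested. Calls were made at 29.7% of the low, 28.3% of the middle and 12.0% of the high isolated sites. At the other autosomal sites these shares were 16.2, 32.9 and 9.54%. Calls by annotation numbered 187 up and 71 down in promoters (16.9% of the isolated promoter sites), 34 and 17 in exons (19.2%), 111 and 178 in introns (18.8%) and 253 and 134 between genes (21.5%). Of the other autosomal sites 9.50% were called in promoters, 22.4% in exons, 19.3% in introns and 23.7% between genes. Isolated promoter sites had a mean testicular level of 33.8 ± 0.327% and the other promoter sites 14.8 ± 0.409% (SD, n = 3), so the shares compare sites that differ at the start, and they were not tested. Among isolated sites, introns were thus the class with more falls than rises. The other autosomal intronic sites had 180 rises and 112 falls. Their mean testicular level was 76.5%, against 82.3% at isolated intronic sites, and the difference in directions was not tested. Intergenic sites were 43.2% of the rises and intronic sites 44.5% of the falls, against 35.1 and 30.0% of all isolated sites. Repeats held 17.8% of the rises and 9.50% of the falls, against 17.7% of all isolated sites. The median difference was 41.6 points among the rises and -38.1 points among the falls.

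Levels at the called sites show how each sample contributed. At the 585 sites that rose, which were chosen by these caput and testicular values, the mean level was 13.0, 14.3 and 13.7% in testicular and 80.5, 45.8 and 44.4% in caput samples. It was 24.1, 33.9 and 27.2% in the corpus and 13.3, 13.8 and 12.8% in cauda samples, neither of which was used for the choice. Corpus lay between caput and testis, and cauda lay within the testicular range or close to it. At the 400 sites that fell, the level was 90.8, 92.3 and 92.5% in testicular, 28.4, 61.0 and 65.4% in caput, 74.4, 77.6 and 78.8% in the corpus and 92.2, 91.7 and 91.6% in cauda samples. Caput replicate 1 was the farthest from testis in both sets. When sites were chosen by caput replicates 2 and 3 alone, caput replicate 1, then not used for the choice, had 79.9% at the 416 rises and 32.5% at the 273 falls. It lay beyond all testicular samples on the called side at 408 of the rises (98.1%) and 258 of the falls (94.5%). These sites were chosen by their testicular values as well, and no share without a change was estimated.

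In corpus, 218 isolated sites were called (4.25%), against 3.96% of all sites. Methylation rose at 133, where 2.69% of all sites rose, and fell at 85, where 1.27% of all sites fell. The corpus and testicular samples did not overlap at 154 of them, against 2.74% of all sites. Corpus replicates 2 and 3 alone gave 232 isolated sites (149 up and 83 down), against 4.48% of all sites. The balance of directions depended on the samples, with 127 up and 159 down without corpus replicate 2, where 2.43% of all sites rose and 2.40% fell. By limma 0 isolated sites passed, against 0% of all sites, and 749 (14.6%) had an unadjusted p under 0.05, against 13.6% of all sites. At the 133 rises the mean level was 14.5, 14.5 and 14.7% in testicular, 80.8, 48.2 and 45.6% in caput, 44.6, 47.8 and 45.9% in the corpus and 16.5, 18.2 and 16.8% in cauda samples. At the 85 falls it was 88.0, 90.1 and 89.9% in testicular, 35.6, 60.6 and 61.5% in caput, 48.0, 64.2 and 56.4% in the corpus and 87.2, 86.6 and 87.9% in cauda samples. The testicular values took part in this choice and are shared with the caput comparison, so the caput levels are given beside the others without a test.

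In cauda, 14 isolated sites were called (0.273%), against 0.233% of all sites. Methylation rose at 7, where 0.0989% of all sites rose, and fell at 7, where 0.134% of all sites fell. Without cauda replicate 1 the calls numbered 24 (0.467%, against 0.445% of all sites), with 9 up and 15 down. The even split was not stable either, with 4 up and 16 down without testicular replicate 1 (0.148 and 0.276% of all sites) and 12 up and 5 down without testicular replicate 2 (0.155 and 0.120% of all sites). The cauda and testicular samples did not overlap at 8 of the 14, against 0.163% of all sites. limma passed 0 isolated sites, against 0% of all sites, and 184 (3.58%) had an unadjusted p under 0.05, against 3.29% of all sites. The shares called at isolated sites and at all sites are given side by side in each segment, and their difference was not tested.

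Sites are named in order of their pooled difference among those called without overlap between segment and testis, so a few larger differences with overlap are not named. The largest rise in caput was at chr12:78167736 (minus strand), an intergenic cytosine in a repeat, 2190 bp from a transcription start and itself inside a CCGG, as only 7 isolated sites were. Its level was 9.09, 14.3 and 8.70% in testicular samples (11, 14 and 23 reads), 90.5, 98.5 and 91.4% in caput (21, 67 and 58 reads), 100, 50 and 93.8% in the corpus and 52.9, 25 and 66.7% in cauda samples. No sample of any segment overlapped with the testicular ones, and this site led the rises called without overlap in all 3 segments. The difference of pooled methylation was 84.1 points in caput (adjusted p = 2.13e-28 by logistic regression, 0.00389 by limma), 76.5 in corpus and 32.98 in cauda. The next was the intergenic site chr16:31909282 (minus strand), with 0, 7.14 and 8.33% in testicular and 100, 47.4 and 100% in caput samples, a difference of 77.5 points (adjusted p = 8.55e-19 by logistic regression). Its corpus levels of 50, 34.4 and 0% and its cauda levels of 23.5, 0 and 0% overlapped with the testicular ones. The third lay in an intron of Cfap43, which encodes a protein of the sperm flagellum (chr19:47832555, minus strand). It had 13.3, 2.94 and 0% in testicular, 100, 50 and 72.7% in caput, 35.3, 16.1 and 22.2% in the corpus and 0, 0 and 0% in cauda samples. Caput and corpus lay above testis there without overlap. The 0 methylated reads in cauda, among 16, 20 and 10 reads, allow up to 18.8, 15 and 30%. The sequences around these 3 sites, 20 bases on each side on the strand of the site, are given to show the CpG content in which the largest rises occurred, with the CpG of the site in capitals (RefSeq sequence of GRCm38).
chr12 site: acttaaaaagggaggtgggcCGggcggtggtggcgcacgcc
chr16 site: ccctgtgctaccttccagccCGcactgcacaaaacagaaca
Cfap43 intron: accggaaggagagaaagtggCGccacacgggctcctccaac

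Of the 7 further sites among the 10 largest rises, 1 was a promoter site of Irx1, a homeobox transcription factor (chr13:71957623, minus strand). This Irx1 site lay 1071 bp from the nearest transcription start of any gene. It went from 0, 0 and 9.09% in testicular to 85.7, 66.7 and 72.7% in caput samples at 11 to 15 reads, a difference of 73.1 points (adjusted p = 9.73e-12 by logistic regression). An intronic site of Ispd, an enzyme of dystroglycan glycosylation (chr12:36471276), had 4.07 ± 3.57% (SD, n = 3) in testis and 76.7 ± 14.5% (SD, n = 3) in caput. Robo3, an axon guidance receptor, had an intronic site (chr9:37427253) with 0% in all testicular samples at 44, 27 and 36 reads, which allows up to 6.82, 11.1 and 8.33%, and 70, 75.6 and 45% in caput. The intronic site of the noncoding transcript 9130024F11Rik (chr1:57006304) was at 0% in testis too, which allows up to 6.67, 8.82 and 6.52%, and at 92.9, 52.9 and 70.4% in caput. The intergenic sites chr13:94860008, chr13:56219271 and chr1:69221579 rose by 69.2, 68.7 and 66.8 points. Corpus replicates were uneven at some of these sites. At chr13:94860008 the corpus samples had 0, 42.9 and 64%, and at Robo3 they had 0, 47.1 and 0%.

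The largest fall in caput was at the intergenic site chr4:139175055 (plus strand). All testicular samples had 100% there (36, 36 and 25 reads), caput had 0, 52.2 and 52.2% (52, 23 and 23 reads), corpus 56.2, 79.2 and 93.2% and cauda 100, 100 and 89.7%. The 0 of 52 reads in caput replicate 1 allow up to 5.77%, and the other caput samples were near the middle of the scale. Pooled methylation fell by 75.5 points (adjusted p = 9.88e-33 by logistic regression, 0.00495 by limma). An intronic site of Acly, which makes acetyl-CoA from citrate (chr11:100521255, plus strand), had 100% in all testicular samples and 0, 50 and 72.2% in caput. The 0 of 33 reads in caput replicate 1 allow up to 9.09%. Its corpus level was 100, 69.8 and 100% and its cauda level 100, 97.6 and 100%, and its caput value fell by 66.2 points (adjusted p = 7.90e-24 by logistic regression). A promoter site of Wars, the tryptophanyl-tRNA synthetase, 1028 bp from the start (chr12:108887389, plus strand), had 100, 93.2 and 100% in testicular and 5.56, 25 and 60% in caput samples. There corpus had 100, 90.7 and 85.3% and cauda 97.1, 97.6 and 100%, and both overlapped with testis. The caput samples of all 3 sites lay below every testicular sample, with replicate 1 the lowest at each. Their surroundings, shown in the same way, are the counterpart of the rises.
chr4 site: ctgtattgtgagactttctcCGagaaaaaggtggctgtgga
Acly intron: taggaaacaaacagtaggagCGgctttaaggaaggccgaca
Wars promoter: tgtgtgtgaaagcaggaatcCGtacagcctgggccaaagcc

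The 7 further falls ran from -63.9 to -60.8 points. An intronic site of the insulin receptor gene Insr (chr8:3225494) had 94.6, 97.3 and 100% in testicular and 6.90, 51.6 and 46.7% in caput samples. A promoter site of R3hdm2 (chr10:127481677), 363 bp from the start, had 100% in all testicular and all cauda samples and 10.3, 59.4 and 53.8% in caput. Pex7, which imports proteins into peroxisomes, had an intronic site (chr10:19893437) with 87.7 ± 6.16% (SD, n = 3) in testis and 27.6 ± 12.1% (SD, n = 3) in caput. In an intron of Cdh23, a cadherin of sensory hair cells (chr10:60593348), testicular samples themselves ranged widely, with 45.8, 96.9 and 92.3%, and limma gave an adjusted p of 0.0603. The intergenic site chr14:57034389 was read 39 to 102 times in testicular and caput samples and had 100, 89.2 and 96.9% in testicular and 20.9, 46.2 and 42.5% in caput samples. The intronic site of the noncoding Gm11762 (chr11:119554985) had 100% in all testicular samples and 4.55, 23.1 and 76% in caput. At the intergenic site chr9:43420114 the caput samples were close together, with 23.8, 35 and 23.8% against 88, 88 and 95% in testis. Of these 7 sites, Insr, Gm11762, R3hdm2 and chr14:57034389 had their lowest caput level in replicate 1.

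In corpus, the second largest rise without overlap was at the intergenic site chr14:11236482, with 13.3, 1.82 and 24.2% in testicular and 33.3, 46.7 and 95.2% in corpus samples, a difference of 51.7 points (adjusted p = 3.92e-10 by logistic regression, 0.213 by limma). In caput it had 91.7, 59.2 and 25% and in cauda 10, 4.55 and 0%. Corpus lay above testis there, with a wide spread between its replicates, and cauda overlapped with testis. The third, in an intron of the noncoding Gm49729 and in a repeat (chr15:24371820), was even between replicates. It had 50, 39.1 and 53.8% in testicular, 100, 95.8 and 100% in corpus, 100, 95 and 82.6% in caput and 72.7, 61.1 and 56.8% in cauda samples, a rise of 50.5 points (adjusted p = 4.48e-11 by logistic regression). All 4 groups had intermediate or high levels, with testis the lowest. The next were chr2:170327050, the intronic site of Gm47771 (chr10:17634257) and chr13:39271915, with rises of 45.3, 43.4 and 43.4 points. At chr13:39271915 the testicular samples were far apart, with 17.2, 50 and 58.8% against 100, 76.5 and 68.8% in the corpus. At Gm47771, testis had 0, 5 and 0% and corpus 42.9, 52.4 and 38.5%.

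The largest corpus fall was at an intronic site of Tsku, a secreted proteoglycan (chr7:98354708). It had 100, 100 and 96.4% in testicular, 0, 68.4 and 36.4% in corpus, 9.09, 56.2 and 65.4% in caput and 94.7, 88.9 and 93.9% in cauda samples, at 10 to 19 reads in the corpus and fell by 56.1 points (adjusted p = 6.76e-11 by logistic regression, 0.0566 by limma). An exonic site of Lgi2, a secreted protein of neurons (chr5:52534930), had 100, 98 and 100% in testicular and 55.9, 76.7 and 21.4% in corpus samples. Its caput samples spanned the whole scale, at 0, 69.2 and 100%. Cd96, a receptor of T and natural killer cells, had an intronic site in a repeat (chr16:46039688) with 50, 44.4 and 78.3% in testicular, 0, 36.4 and 5.56% in the corpus and 100, 35 and 0% in caput samples. It was called in corpus and not in caput, whose replicates were at both ends of the scale. Sdk2, a cell adhesion protein, had an intronic site (chr11:114015837) at 89.7, 94.5 and 96.1% in testicular and 14.8, 68.6 and 29.2% in corpus samples, and an intronic site of Plac8 (chr5:100557145) had 83.9, 96.3 and 94.2% and 33.3, 52.3 and 65%. The intergenic site chr14:57034389, among the largest caput falls, also fell in corpus by 44.4 points.

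All 8 called cauda sites without overlap can be named. Besides the leading rise, a promoter site of Morn3, which encodes a protein with MORN repeats, lay 381 bp from the start (chr5:123046591). It had 28.9, 50 and 29.8% in testicular and 58.3, 75 and 75% in cauda samples, a difference of 31.7 points (adjusted p = 0.00525 by logistic regression). In caput it had 0% in all samples at 12, 24 and 16 reads, which allows up to 25, 12.5 and 18.8%, and in corpus 53.3, 5.56 and 93.8%. A promoter site of the noncoding Tbx3os2 (chr5:119689313) had 47.1, 80.95 and 92.3% in testicular and 100% in all cauda samples. The urea transporter gene Slc14a2 on chromosome 18 had an intronic site with 0, 6.12 and 6% in testicular and 50, 25.6 and 20.6% in cauda samples. The falls were at the intergenic sites chr6:57333820, chr2:100102672 and chr1:31689017 and in an intron of the secretin receptor gene Sctr (chr1:120045134). At chr6:57333820 testis had 57.8, 77.1 and 92.7% and cauda 40.6, 39.1 and 33.3%, a difference of -38.5 points (adjusted p = 1.80e-06 by logistic regression). At chr2:100102672, read 55 to 124 times in these samples, testis had 55.2, 60.5 and 33.9% and cauda 3.26, 7.27 and 31.7%. At chr1:31689017 testis had 81.8, 82.4 and 75% and cauda 39.02, 68.2 and 53.8%, and at Sctr the levels were 79.5, 94.4 and 100% and 71.4, 54.5 and 66.7%. Testicular replicates were far apart at several of these sites, and limma gave an adjusted p above 0.99 at all 8.

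Precision was greatest at the isolated sites with the highest lowest coverage. The promoter site of Otx2, a homeobox transcription factor of the head, lay in a repeat, 177 bp from the nearest start of any gene (chr14:48669465). It had 288 to 568 reads per sample. Its level was 1.94, 0.216 and 2.05% in testicular, 29.6, 18.1 and 13.7% in caput, 12.2, 9.77 and 15.3% in the corpus and 1.23, 1.74 and 0.538% in cauda samples. Every caput and corpus sample lay above every testicular and cauda sample. The differences from testis of 18.8 points in caput (adjusted p = 3.88e-69 by logistic regression, 0.00301 by limma) and 10.7 points in corpus were below the size threshold. An exonic site of the antisense transcript Irx3os (chr8:91805851) had 0.882, 1.08 and 1.92% in testicular and 19.05, 8.48 and 9.68% in caput samples. The intergenic site chr1:78202116 had 0.385, 1.29 and 0% in testicular and 11.5, 1.42 and 8.20% in caput samples. Caput lay above testis at both without overlap, with replicate 1 the highest.

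Isolated sites in genes for the enzymes of DNA methylation and demethylation lay in 3 of 10 genes and numbered 5 of 9 table sites. Tet1 encodes a dioxygenase that oxidises methylated cytosine, and it had 3 isolated sites in promoters. At the site chr10:62885366, in a repeat and 1958 bp from a start, the level was 0, 5.32 and 2.78% in testicular, 80.8, 43.6 and 40% in caput, 12.03, 23.1 and 17.6% in the corpus and 0.671, 0.714 and 2.05% in cauda samples, at 125 to 227 reads. At the site chr10:62891116, 1870 bp from a start, it was 2.23, 6.02 and 1.28% in testicular, 75.9, 33.1 and 48.3% in caput, 15.8, 16.6 and 21.5% in the corpus and 3.75, 0 and 3.24% in cauda samples. At both, all caput and corpus samples lay above all testicular and cauda samples, and caput replicate 1 was the highest. Both rose in caput, by 50.5 and 50.4 points (adjusted p = 3.56e-86 and 1.90e-77 by logistic regression). In corpus the differences of 15.2 and 15.3 points did not pass the size threshold. The site chr10:62879833, 181 bp from a start, had 70.8, 80 and 71.1% in testicular and 95.7, 81.1 and 73.3% in caput samples, which overlapped, and was not called in any segment. The 3 sites and their surroundings are shown because 2 of them were alike in every group while the site nearest to a start was not, with the CpG of each in capitals.
Tet1 site 62879833: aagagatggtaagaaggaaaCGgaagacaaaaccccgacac
Tet1 site 62885366: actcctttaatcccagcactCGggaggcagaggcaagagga
Tet1 site 62891116: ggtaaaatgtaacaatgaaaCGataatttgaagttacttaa

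The de novo methyltransferase gene Dnmt3a had an exonic isolated site (chr12:3913114) with 96.5, 96.1 and 94.4% in testicular and 77.3, 80.9 and 91.8% in caput samples at 103 to 257 reads. All caput samples lay below all testicular ones, but the difference of -12.2 points was under the threshold. Tet2, a relative of Tet1, had an intronic site in a repeat (chr3:133502052) with at least 95.8% in every sample. Of the 17 maternally methylated imprint genes, whose imprints are absent from spermatozoa, 2 had an isolated site. The site within Gnas, which encodes a G protein subunit, lay in the promoter of the noncoding Gm27899 (chr2:174287639). It had 0, 2.27 and 10.4% in testicular, 57.4, 13.8 and 47.4% in caput, 8.70, 9.76 and 19.4% in the corpus and 11.1, 5 and 7.69% in cauda samples, and rose in caput by 34.2 points (adjusted p = 3.87e-12 by logistic regression, 0.0117 by limma, which misses 0.01). An exonic site of Peg10 lay 8541 bp from the nearest start of any gene (chr6:4755947). It had 83.3 ± 9.62% (SD, n = 3) in testis, 86.97 ± 14.4% in caput, 94.3 ± 9.90% in corpus and 68.6 ± 13.3% in cauda, and was not called. Of the 4 paternally methylated genes, H19, a noncoding RNA whose upstream region carries the sperm imprint, had a promoter site (chr7:142575817). This H19 site lay 721 bp from the nearest start of any gene. It had 97.8, 96.7 and 92.8% in testicular, 87.1, 93.2 and 93.7% in caput, 97.1, 94.1 and 89.3% in the corpus and 98.9, 98.4 and 97.1% in cauda samples at 68 to 270 reads and was not called in any segment.

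Of 21 genes of the epididymal epithelium, 2 had isolated sites. Npc2, a sterol-binding protein of epididymal fluid, had promoter sites at chr12:84761622 and chr12:84771925. The former had 99.1 ± 1.60% (SD, n = 3) in testis and 90.2 ± 9.41% in caput and was not called. The latter had 52.8, 87.3 and 73.3% in testicular, 14, 51.9 and 30.1% in caput, 46.2, 51.2 and 67.7% in the corpus and 78.8, 64.4 and 76.9% in cauda samples. Caput lay below testis there without overlap and fell by 35.8 points (adjusted p = 5.82e-12 by logistic regression, 0.0402 by limma). The transcription factor gene Pax2 had an intronic site (chr19:44812712) with 24.9 ± 13.7% (SD, n = 3) in testis and 38.9 ± 12.7% in caput and was not called. The lists of 10 leukocyte genes, 24 germline genes and 7 further imprinted genes had 2, 8 and 2 table sites and 0 isolated ones. Further genes were taken from the study, which chose most of them on these samples, so they are no independent evidence. Of these 14 genes, 3 had 4 isolated sites. An exonic site of the receptor gene Notch2 (chr3:98147408) had 96.4, 86.96 and 100% in testicular and 50, 82.6 and 40% in caput samples and fell by 28.7 points (adjusted p = 9.93e-05 by logistic regression, 0.0382 by limma). The other Notch2 site (chr3:98150039), at 94.4 ± 6.34% (SD, n = 3) in testis and 93.7 ± 3.09% in caput, was not called. Nor were the promoter sites of the actin-binding protein gene Cald1 (chr6:34761744), at 96.3 ± 3.43% and 93.9 ± 4.28%, and of the protease gene Capn2 (chr1:182478160), at 95.9 ± 4.17% and 93.3 ± 6.17%. The Cald1 and Notch2 sites lie outside the regions that the study lists for these genes.

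Replicates of testis and cauda were alike at isolated sites, and those of caput were the least alike when replicate 1 was included. The mean Pearson correlation over the 3 pairs of replicates at the 5135 sites was 0.973 in testis (0.969 to 0.980), 0.832 in caput (0.779 to 0.917), 0.920 in corpus (0.905 to 0.940) and 0.978 in cauda (0.977 to 0.979). At the other autosomal sites it was 0.981, 0.909, 0.946 and 0.983. The mean size of the difference between replicates at an isolated site was 5.82 points in testis, 13.5 in caput, 9.71 in corpus and 5.21 in cauda. Replicates lay more than 25 points apart at 3.32, 19.2, 11.2 and 2.86% of the isolated sites in that order. Between caput replicates 2 and 3 this share was 10.3% and the mean difference 9.60 points, so without replicate 1 caput was about as alike as corpus. At the other sites it was 2.56, 13.9, 8.62 and 2.30% for the 4 groups, so isolated sites were read less alike in every group. By Spearman's coefficient the within-group means at isolated sites were 0.833, 0.766, 0.838 and 0.850, and caput was again the lowest. Testicular and cauda samples were as close to each other, with Pearson correlations between 0.971 and 0.980, as replicates were within those groups.

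The spread between replicates was set beside that expected from read sampling. The root mean square of the SD between replicates over the isolated sites was 6.92 points in testis, 15.6 in caput, 11.5 in corpus and 6.35 in cauda, and binomial sampling of independent reads would give 3.69, 5.71, 5.60 and 3.89 points. The observed spread was thus 1.87, 2.72, 2.05 and 1.63 times that of read sampling. At the other autosomal sites these ratios were close to that, at 1.87, 2.67, 2.06 and 1.64. Among sites at 80% or more in cauda, the root mean square was 5.53, 13.9, 9.99 and 4.72 points at isolated sites. It was 5.69, 12.5, 9.74 and 4.88 points at the other sites of that class. The median SD at isolated sites was 3.13, 7.22, 5.18 and 2.81 points. It was larger at sites from 20 to under 80% in cauda, where it was 9.91 points in testis, 14.4 in caput, 13.8 in corpus and 10.3 in cauda. A likelihood-ratio test per site that the replicates of a group share 1 level, adjusted over all sites, was added after seeing the data. The test sets the samples against counting error only, with every read taken as independent. It found unequal replicates at 426 isolated sites in testis (8.30%, against 7% of all sites), 1737 in caput (33.8%, against 28.0%), 673 in corpus (13.1%, against 11.9%) and 145 in cauda (2.82%, against 2.66%). Between caput replicates 2 and 3 it found 356 (6.93%, against 5.64% of all sites).

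Even testicular replicates could disagree at well covered sites. The largest SD among testicular replicates with at least 20 reads each was at an intronic site of Mthfd1l, an enzyme of mitochondrial folate metabolism (chr10:4111473), with 3.33, 75 and 81.4% at 30, 72 and 43 reads. Its caput, corpus and cauda samples had 7.69, 47.6 and 34.4%, 35.3, 68.2 and 45% and 64.7, 35.3 and 41.4%. It was called as a fall of 28.7 points in caput, yet caput and testis overlapped and limma gave an adjusted p of 0.655. The next were the intergenic site chr1:91697036, with 2.27, 9.52 and 72.7%, and an intronic site of the neurotrophin gene Ntf3 (chr6:126142147), with 29.6, 88.9 and 96.97%. At chr1:91697036 a rise was called in caput, corpus and cauda although the testicular samples overlapped with those of all 3 segments. In Mthfd1l and Ntf3 it was testicular replicate 1 that lay low, and at chr1:91697036 testicular replicate 3 that lay high.

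Some isolated sites stayed at an end of the scale in every sample. All 12 samples were under 10% at 543 of them (10.6%), against 30.4% of the other autosomal sites, and at 90% or more at 692 (13.5%), against 9.78% of the others. All testicular and cauda samples were at 90% or more at 1780 isolated sites (34.7%). The levels of the 12 samples ranged over more than 25 points at 2416 isolated sites (47.0%), against 35.1% of the other sites.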

How the data were processed

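DNA methylation was measured by RRBS in 12 samples, 3 of each origin. The authors deposited a table with the count of all, methylated and unmethylated reads per sample and CpG site, without normalization, and its 36 columns were all used. They trimmed reads with Trim Galore 0.4.1, aligned them to GRCm38 with Bismark 0.16.1 and used methylKit. Their lists of comparisons hold methylation differences, p-values and q-values and were not used. The names of their caput and corpus lists say that outliers were left out, and all replicates were kept here. Methylation is the methylated share of the reads of a site in percent, and every site of the table has at least 10 reads in every sample.

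The isolated sites and the gene lists were chosen with earlier results of these data known. Alternatives without caput replicate 1 by limma and by CpG content were also chosen after seeing the data. Reads pooled over replicates were tested by logistic regression, as in the study, with Benjamini-Hochberg adjustment over 14149 sites in place of SLIM. The second test was limma on log2 of methylated over unmethylated reads, with 1 read added to each. Means over sites were compared per sample by exact two-sided permutation tests. Scripts were tested on simulated data. Genes came from GENCODE M21 and repeats and sequence from the RefSeq sequence of GRCm38.

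Named sites are those called without overlap between segment and testis, ranked by the pooled difference (the 10 largest rises and falls for caput, up to 6 for corpus and cauda), the 3 with the highest lowest coverage, the 3 with the largest testicular SD at 20 or more reads, and every isolated site in a listed gene or within 2000 bp of its start. Alternatives were limma, a replicate block, a difference above 40 points, 20 reads per sample, isolation by 500 or 2000 bp, both strands of a CpG as 1 site, medians, pooled reads, Spearman's coefficient and leaving out each replicate. Classes by cauda level, CpG content and annotation, and the test among replicates, were chosen after seeing the data. Software was samtools 1.23.1, pysam 0.24.0, pandas 2.3.3, scipy 1.17.1 and numpy 2.4.6 under Python 3.11.15, and limma 3.58.1 under R 4.3.3.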

Additional observations from a re-analysis of the deposited data

Results flagged for a closer look

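At 59 isolated sites (1.15%, against 1.06% of all sites of the table) every caput sample lay beyond all testicular samples on one side and every cauda sample on the other. Among the sites named here there were 3, which are given below, and the difference between the segments was not tested. At the intronic Pex7 site (chr10:19893437) the caput levels of 31.8, 13.9 and 37.04% lay below the testicular 87.5, 81.6 and 93.9%, and the cauda levels of 100, 100 and 95.7% lay above them. The cauda difference from testis less the caput difference was 72.7 points, and the site was called in caput and not in cauda. At the promoter site of Morn3 (chr5:123046591) caput had 0% in all samples, testis 28.9, 50 and 29.8% and cauda 58.3, 75 and 75%, and the same quantity was 67.3 points. This was the only site of the 59 that was called in both segments. At the intergenic site chr2:100102672 the order was the reverse, with 70.7, 66.3 and 76.7% in caput, 55.2, 60.5 and 33.9% in testis and 3.26, 7.27 and 31.7% in cauda, and the quantity was -57.3 points, with a call in cauda and not in caput. Both differences use the same testicular samples.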

How the results depend on the processing

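Most levels rest on 10 to 60 reads, and the logistic regression takes reads as independent and leaves the spread between replicates aside. Of 132 values of the main results under settings that could change them, 98 stayed within the spread between replicates, or within 1.5 times of a count, 19 moved further and 15 changed sign, and the cause was not tested. The 985 caput calls became 321 by limma (6.25%, against 5.96% of all sites) and 497 at a difference above 40 points (9.68%, against 8.76%). At 20 reads or more they became 568 of 3102 sites (18.3%, against 17.0% of all sites). With 1 sample left out they numbered 689 (13.4%, against 11.9%) to 1152 (22.4%, against 19.5%). The 218 corpus calls became 0 by limma, 27 above 40 points and 69 of 2065 sites at 20 reads, and 219 to 286 with 1 sample left out, with 127 up and 159 down without corpus replicate 2 against 133 and 85 with all. The 14 cauda calls became 0 by limma (against 0% of all sites) and 1 above 40 points (0.0195%, against 0.0212%). At 20 reads they became 8 of 3616 sites (0.221%, against 0.159% of all sites). With 1 sample left out they numbered 14 (0.273%, against 0.297%) to 24 (0.467%, against 0.445%), the 24 without cauda replicate 1. The split of 7 up and 7 down became 4 and 16 without testicular replicate 1 (0.148 and 0.276% of all sites). limma passed 73 caput sites without caput replicate 1 (1.42%, against 1.60% of all sites). With the replicate block the calls were 983, 217 and 12 (19.1, 4.23 and 0.234%, against 16.8, 3.96 and 0.226% of all sites). Isolation by 500 or 2000 bp gave 999 and 964 caput calls (19.1 and 19.2%, against 16.8% of all sites). Joining the strands could change nothing, since no isolated site is read on both.

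The caput minus testis mean of 1.26 points was -8.32 as a median over sites, 0.481 with reads pooled over sites, 2.97 at 20 reads and 0.903 to 1.51 with 1 sample left out. Corpus minus testis, 0.207, was -5.67 as a median, -3.84 pooled and -0.421 (without corpus replicate 2) to 0.826, with -0.154 without testicular replicate 1. Cauda minus testis, 0.0609, was 1.15 as a median, -0.650 pooled, -0.0591 at 20 reads and -0.300 (without testicular replicate 1) to 0.303, with -0.0224 and -0.00682 without cauda replicates 1 and 2. Corpus minus caput, -1.06, was 2.65 as a median, -4.32 pooled, -2.27 at 20 reads and -1.68 to -0.438. Cauda minus corpus, -0.146, was 6.83 as a median, 3.19 pooled and -0.765 to 0.482 (without corpus replicate 2), with 0.00503 without cauda replicate 3. Each of these 5 means thus changed sign under at least 1 other setting.

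As medians the shifts of isolated minus other sites were -34.6 in caput and -16.9 in corpus, mostly from the other sites, and 1.90 in cauda. As means with 1 sample left out they were -3.55 to -2.33, -1.05 to -0.941 and 0.0585 to 0.252. The added alternatives were chosen after seeing the data. For sites low in cauda the caput shift of 5.99 points was 3.77 without caput replicate 1, and -1.50, -2.54 and -0.434 at few, intermediate and many CpGs, or -2.54, -2.25 and -0.257 without that replicate. Replicate agreement, 0.926 as a mean over groups, was 0.822 by Spearman's coefficient, 0.949 at 20 reads and 0.912 to 0.947 with 1 sample left out.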
